A study of Mus musculus with 12 samples.

Results

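Oxygen-glucose deprivation (OGD), a laboratory model of ischaemia in which tissue is held without oxygen and glucose, was compared with the control condition in isolated mouse optic nerves. The comparison covered 217 of the 566 mouse miRNA probes on an nCounter panel. These were chosen because their raw count exceeded the background limit of the lane in at least 3 of the 12 lanes of the series, where the limit was the mean plus 2 SD of the 8 negative controls of that lane. The rule used detection and not the difference between the groups. Of the 217 probes, 153 were above the limit in all 6 lanes of the comparison, 60 in 1 to 5 of them and 4 in 0. The 349 remaining mouse probes, left untested, held 1.23% of the mouse miRNA count of these 6 lanes.

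Both groups were optic nerves of male C57Bl/6 mice. Per the labels they differed in the agent, Control in 3 samples and OGD in 3 samples, and in the lane, which the sample titles give. The series held 2 further groups of 3, OGD with CX-4945 and OGD with MS-275, which entered the fit to share its estimate of the spread. The sources used here do not give how long OGD lasted, how Control nerves were kept, how old the mice were or how many nerves made up a sample. No label says that the samples of a group came from separate animals, so p-values measure the spread between these samples, which may be technical.

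The optic nerve carries the axons of retinal ganglion cells and holds oligodendrocytes, astrocytes, microglia and vessels, but no neuronal cell bodies. A miRNA is a short RNA that guides Argonaute proteins to messenger RNAs. Pairing runs mainly through its seed, bases 2 to 8 from the 5′ end, and lowers the output of the paired messenger. Ischaemia is known to act on both the transcription and the maturation of miRNAs, and miR-210 is the best-known target of hypoxia-inducible factor among them. In whole nerve, fewer cells of a type and less of a miRNA per cell cannot be told apart.

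The lanes of the OGD samples, 4 to 6, had a higher background than lanes 1 to 3 of Control. Lane position went with the agent, so in every measure a difference by lane and one by OGD cannot be told apart. The mean count of the negative controls was 15.25, 14.6 and 15.5 in Control replicates 1 to 3, and 22.5, 26.25 and 18 in OGD replicates 1 to 3. The groups did not overlap, and the means stood at 22.25 ± 4.13 (SD, n = 3) and 15.1 ± 0.451 (exact permutation test, two-sided p = 0.10, the smallest that 3 samples against 3 allow; Benjamini-Hochberg p = 0.18 over 9 lane measures). Fewer probes exceeded the limit in OGD: 191, 154 and 192 against 198, 198 and 212 in Control (exact permutation p = 0.10, adjusted 0.18). Accordingly 35 probes were above the limit in all 3 Control lanes but not in all OGD lanes, and 0 the other way round. The total mouse miRNA count was 302026, 302003 and 374440 in Control and 416083, 254692 and 360511 in OGD, with no separation (exact permutation p = 0.90). Positive ligation controls, a measure of how efficiently the counting tag was attached to small RNA, likewise overlapped, with geometric means of 1386, 1422 and 2369 in Control and 1751, 1109 and 2423 in OGD (exact permutation p = 0.90). The positive controls, which report the counting step, had geometric means of 969, 977 and 947 in Control and 1111, 1148 and 1047 in OGD, with no overlap (exact permutation p = 0.10, adjusted 0.18), and when lanes were scaled by them 0 probes had an unadjusted p under 0.05. The mean count of the 4 mRNA probes was 1051, 1574 and 1286 in Control and 1305, 2033 and 1625 in OGD, with overlap. Its group mean was 1.27 times as high in OGD (exact permutation p = 0.20, adjusted 0.30). With lanes scaled by the mRNA probes the median log2 fold change of all tested probes was -0.19. OGD replicate 2 had the lowest total, the lowest ligation count and the highest negative controls of the 6 lanes.

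**Figure D1:**
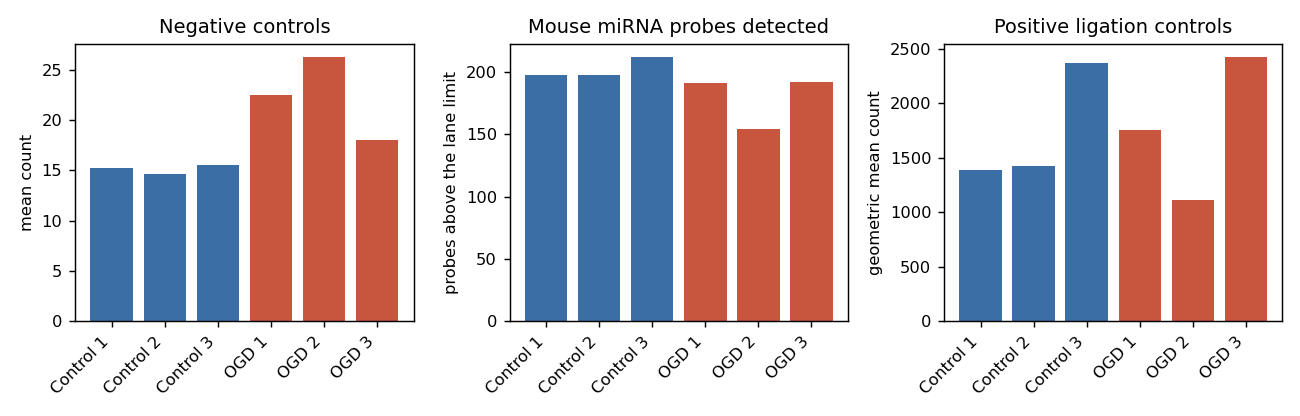
Bars give, for each of the 6 lanes (Control blue, OGD red), the mean count of the negative controls, the number of mouse miRNA probes above the lane limit, and the geometric mean count of the positive ligation controls. Negative controls run from 14.6 to 15.5 in Control and from 18 to 26.25 in OGD, and OGD replicate 2 has the fewest probes above the limit, 154.

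No miRNA passed the threshold between OGD and Control. By edgeR's quasi-likelihood fit 0 of 217 probes were called (0% of those tested) at an adjusted p of 0.05. The lowest adjusted p was 0.430, and DESeq2 and limma-voom also called 0. At an unadjusted p under 0.05 edgeR gave 12 probes, 5.53% of those tested: 11 lower in OGD (5.07%) and 1 higher (0.461%). DESeq2 gave 10 and limma-voom 13. The 1 higher probe of the edgeR fit was miR-146b, which was below the limit in all 6 lanes. The split by direction depended on the setting. With background subtracted it was 9 lower and 5 higher, with 8 of the 12 probes among them. Scaled by the ligation controls it was 0 lower and 2 higher, with 0 of the 12 among them. With the limit required in all 12 lanes it was 7 lower and 0 higher.

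In counts with the background left in, differences between the groups were small for most probes. The 95% interval of the fold change did not reach 2-fold in either direction for 205 of the 217 probes, nor 1.5-fold for 121. The 12 whose interval reached 2-fold were miR-146b, miR-153, miR-193, miR-1937a+miR-1937b, miR-195, miR-2134, miR-2140, miR-2141, miR-409-5p, miR-7a, miR-7b and miR-876-3p, most of them of low count. Precision followed the count, since the median SE of the log2 fold change was 0.23 for the 73 probes under 100 normalised counts in Control, 0.18 for the 95 between 100 and 1000, and 0.15 for the 49 over 1000. For dim probes the intervals describe the count with its background and do not bound the change of the miRNA itself, and 153 of the 217 were above the limit in all 6 lanes. With background subtracted the log2 fold change of miR-153 moved from -0.42 to -1.33 and that of miR-221 from -0.48 to -0.84. That of the abundant let-7c moved from -0.45 to -0.33. Of all tested probes 104 (47.9%) had a lower and 113 (52.1%) a higher mean in OGD, and the median log2 fold change was 0.01. In 30 probes (13.8%) the 3 OGD values lay all on one side of the 3 Control values, below them in 20 (9.22%) and above them in 10 (4.61%). Grouped by all digits but the last, a cut that no label states, the numbers in the sample titles give 3 runs that each hold 1 sample of either group. Within them 40 probes (18.4%) were lower in OGD in all 3 runs and 36 (16.6%) higher in all 3. Normalised counts, here and below, are raw counts scaled by edgeR's TMM factors, and all fold changes are OGD over Control.

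**Figure D2:**
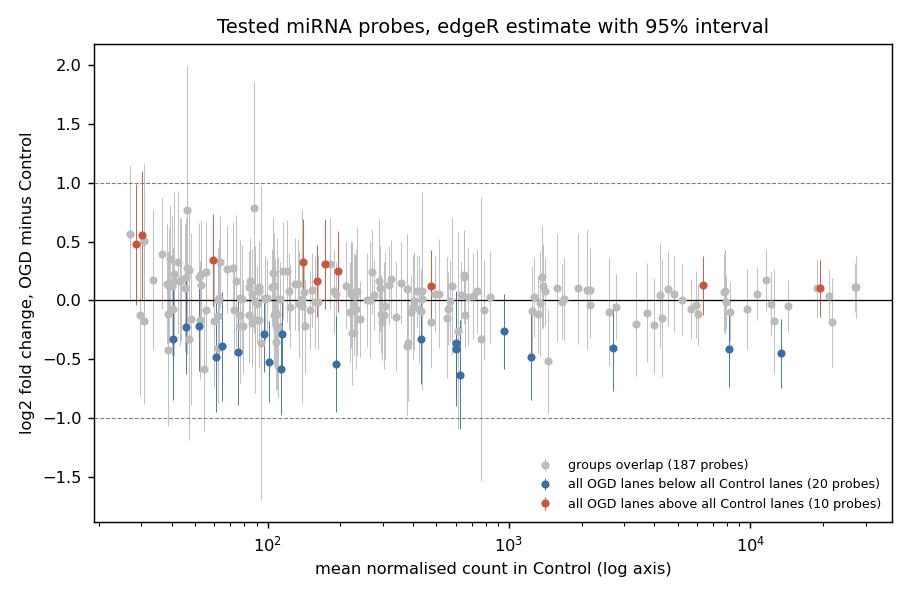
Each point is 1 of the 217 tested probes, with its mean normalised count in Control on a log axis and its edgeR log2 fold change, OGD minus Control, with the 95% interval as a bar; dashed lines mark 2-fold. Blue points (20) have all OGD values below all Control values, red points (10) the reverse, and none passed the adjusted threshold.

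let-7c, let-7a and let-7f were the most abundant of the 20 probes with all OGD values below all Control values. let-7 miRNAs hold back cell growth and promote differentiation, and are held down in stem cells by the protein LIN28. The 9 let-7 family probes share a seed and had log2 fold changes from -0.45 to 0.10. Differences between members were not tested. Their mature sequences (RefSeq, GRCm38.p6) are shown with the seed in capitals, from the lowest log2 fold change to the highest.
let-7c: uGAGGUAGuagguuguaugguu
let-7a: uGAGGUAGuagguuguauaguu
let-7f: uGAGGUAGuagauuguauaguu
miR-98: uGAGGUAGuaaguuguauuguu
let-7e: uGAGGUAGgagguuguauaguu
let-7b: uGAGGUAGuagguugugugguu
let-7g: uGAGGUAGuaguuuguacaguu
let-7i: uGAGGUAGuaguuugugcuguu
let-7d: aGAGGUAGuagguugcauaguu
All 9 are 22 bases long. Against let-7a, counting positions from 1 at the 5′ end, let-7c differs by A19G, let-7f by G12A and let-7e by U9G. miR-98 differs by G11A and A19U, let-7b by A17G and A19G, let-7g by G12U and U18C, and let-7d by U1A and U16C. let-7i differs by G12U, A17G, U18C and A19U. Probes for sequences this close can share signal.

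let-7c had normalised counts of 12843, 14650 and 12686 in Control and 10447, 8140 and 10809 in OGD. All 3 OGD values lay below all 3 of Control, and the mean was 26.8% lower (log2 fold change -0.45, SE 0.14, 95% interval -0.74 to -0.16; edgeR adjusted p = 0.430). let-7a had 7666, 8951 and 7893 in Control and 6340, 4898 and 7188 in OGD (log2 fold change -0.41, SE 0.15). let-7f had 2686, 2719 and 2652 in Control and 2109, 1631 and 2349 in OGD (-0.40, SE 0.17). In each of these 3 probes the groups did not overlap and OGD replicate 2 was the lowest lane; without it the log2 fold changes were -0.33 for let-7c, -0.27 for let-7a and -0.27 for let-7f.

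The other 6 let-7 probes overlapped between the groups. miR-98 had a log2 fold change of -0.12 (SE 0.13), let-7e of -0.05 (SE 0.13) and let-7b of -0.05 (SE 0.10). let-7g stood at 0.04 (SE 0.10), let-7i at 0.06 (SE 0.11) and let-7d at 0.10 (SE 0.12). When lanes were scaled by the mRNA probes these 3 stood at -0.15, -0.12 and -0.10, above the median of -0.19 over all tested probes. With background subtracted they stood at 0.18, 0.20 and 0.25, beside a median of 0.09. let-7e, which differs from let-7a at 1 base, had 2836, 2599 and 2860 counts in Control and 2592, 2394 and 3009 in OGD. The whole list had 6 lower and 3 higher means of 9 and a median of -0.05, beside 0.01 over all tested probes.

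Ratios within a lane need no scaling between lanes and describe the same counts in another way. The summed raw count of let-7a, let-7c and let-7f over that of the other 6 probes was 0.334, 0.366 and 0.361 in Control and 0.268, 0.207 and 0.292 in OGD. Every OGD lane lay below every Control lane. These 3 members were picked after their values were seen, so the ratio has no test. let-7c over let-7b was 0.892, 1.006 and 0.898 in Control and 0.714, 0.645 and 0.750 in OGD, without overlap. This pair too was picked with the values known, so its ratio has no test. Among the 3 themselves the ratios overlapped between the groups: let-7c over let-7a averaged 1.64 ± 0.0340 in Control and 1.60 ± 0.0874 in OGD, and let-7a over let-7f 3.04 ± 0.226 and 3.02 ± 0.0314 (SD, n = 3). Counts of different probes are not calibrated against each other, so such a ratio has meaning between lanes and not as a ratio of molecules. In the lanes of OGD with a drug the summed ratio was 0.279, 0.378 and 0.312 with CX-4945 and 0.359, 0.371 and 0.295 with MS-275, from within the OGD range to above the highest Control lane.

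At the loci matched here, which may not be every copy, position in the genome did not separate the lower members from the rest. RefSeq places let-7a at chr13:48538239-48538260, let-7f at chr13:48537889-48537910 and let-7d at chr13:48536078-48536099, all on the minus strand (GRCm38.p6). let-7a and let-7f, but not let-7d, had lower means in OGD: let-7a over let-7d was 0.391, 0.444 and 0.469 in Control and 0.317, 0.225 and 0.379 in OGD, with no overlap. The pair was picked with the values known, so this ratio has no test. A copy of let-7c at chr15:85706616-85706637 and let-7b at chr15:85707325-85707346 both lie on the plus strand within the long noncoding gene Lncppara. let-7c has a second copy at chr16:77599672-77599693 and let-7f one at chrX:151912353-151912374 within Huwe1, and the mature counts do not tell copies apart.

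**Figure D3:**
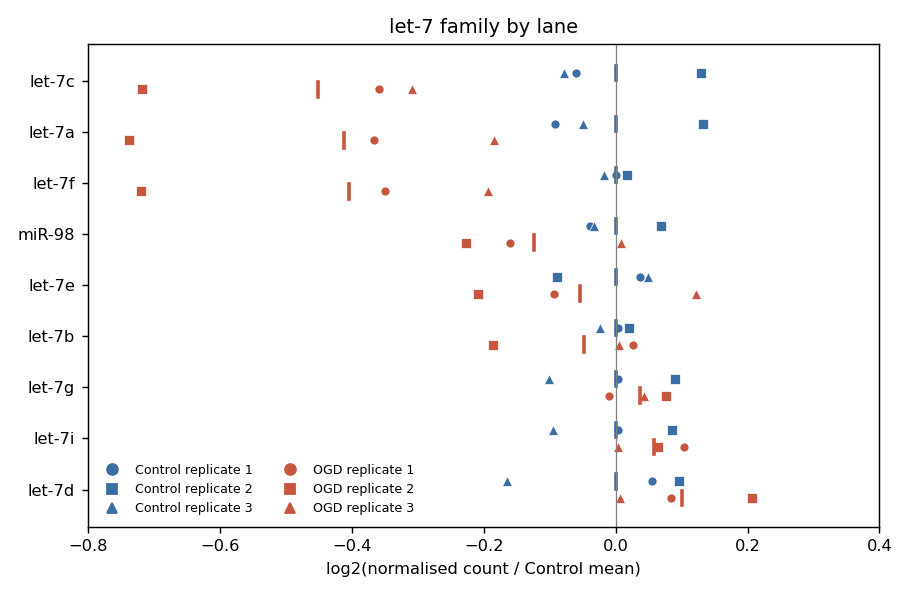
Points give log2 of the normalised count over the Control mean for each let-7 family probe in each lane (Control blue, OGD red; circle, square and triangle for replicates 1, 2 and 3), and bars mark log2 of the group mean. For let-7c, let-7a and let-7f all OGD points lie left of all Control points, while the other 6 probes overlap.

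Of the miRNAs of red blood cells, miR-144 and miR-451 had lower counts in OGD. The pair is processed from a single erythroid transcript, and miR-451 is unusual in being cut by Argonaute 2 in place of Dicer. RefSeq places them close together on the plus strand, miR-144 at chr11:78073047-78073066 and miR-451 at chr11:78073186-78073207, with seeds that differ.
miR-144: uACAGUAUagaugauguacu
miR-451: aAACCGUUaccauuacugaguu
miR-451 had 1277, 1254 and 1160 normalised counts in Control and 937, 773 and 928 in OGD (log2 fold change -0.48, SE 0.17, adjusted p = 0.484 by edgeR). miR-144 had 124, 93.5 and 123 against 73.7, 64.2 and 88.0 (log2 fold change -0.58, SE 0.18), and was above the limit in 2 of the 3 OGD lanes. In both, all OGD lanes lay below all Control lanes, as in 9.22% of all tested probes. Their ratio within a lane overlapped between the groups, at 11.1 ± 2.09 for miR-451 over miR-144 in Control and 11.8 ± 1.11 in OGD (SD, n = 3). miR-486, the remaining member of the list, overlapped, with 80.7, 117 and 78.9 in Control and 88.5, 78.2 and 78.5 in OGD (-0.16, SE 0.19). The list had 3 of 3 means lower, a median of -0.48 and a lane median of its members, relative to the Control mean, of 0.05, 0.03 and -0.09 in Control and -0.39, -0.67 and -0.37 in OGD. Whether the amount of blood left in the nerves differed between the groups was not tested.

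miRNAs of the vessel wall differed in the same direction, but 1 Control lane was as low as OGD. miR-143 and miR-145 mark smooth muscle and pericytes and keep them contractile. miR-145 had 969, 1879 and 1506 normalised counts in Control and 992, 959 and 1096 in OGD (log2 fold change -0.51, SE 0.21). miR-143 had 251, 495 and 398 against 288, 249 and 352 (-0.36, SE 0.23). Control replicate 1 lay within the OGD range for both, and without Control replicate 2, the highest lane, the log2 fold change of miR-145 was -0.29. The ratio of miR-145 to miR-143 was 3.81 ± 0.0365 in Control and 3.47 ± 0.373 in OGD. The endothelial miR-126-3p, which supports vessel integrity, overlapped at 12237, 13532 and 10852 against 12707, 12405 and 10770 (-0.03, SE 0.13), and miR-126-5p stood at -0.18 (SE 0.18).

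The remaining lower probes by smallest p were of low to moderate count. miR-328, a miRNA linked to cell adhesion and cardiac ion channels, had 180, 208 and 189 normalised counts in Control and 121, 102 and 171 in OGD (log2 fold change -0.54, SE 0.19). The shared probe for miR-1937a and miR-1937b, entries since withdrawn as likely pieces of transfer RNA, had 542, 598 and 744 against 401, 316 and 496 (-0.63, SE 0.22). miR-669f, from the large repeat cluster in an intron of Sfmbt2, had 108, 84.3 and 111 against 66.4, 67.3 and 77.4 (-0.52, SE 0.16). In all 3 probes, picked by p, every OGD lane lay below every Control lane, as in 9.22% of all tested probes. miR-221, which restrains the cell cycle inhibitor p27, had 59.9, 59.3 and 64.5 in Control and 52.5, 43.8 and 35 in OGD (-0.48, SE 0.22), and only 1 OGD lane was above the limit. Its sequence is shown because its partner miR-222 was not tested and miR-221 alone stands for that family here; RefSeq places it at chrX:19146307-19146329 on the minus strand.
miR-221: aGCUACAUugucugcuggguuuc

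All 10 of these lower probes kept a negative log2 fold change under every alternative run, with let-7c between -0.73 and -0.33 and miR-144 between -1.19 and -0.49. Leaving out each of the 6 lanes in turn, the unadjusted edgeR p stayed under 0.05 every time for let-7c, miR-669f and miR-144. For the others it did not, and let-7f passed in 1 of the 6. Because the OGD lanes had more background, the values after subtracting it are given too: -0.33 for let-7c, -0.38 for miR-451, -0.75 for miR-144 and -0.84 for miR-221, beside a median of 0.09 over all tested probes. The part of the background in these differences was not tested further.

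**Figure D4:**
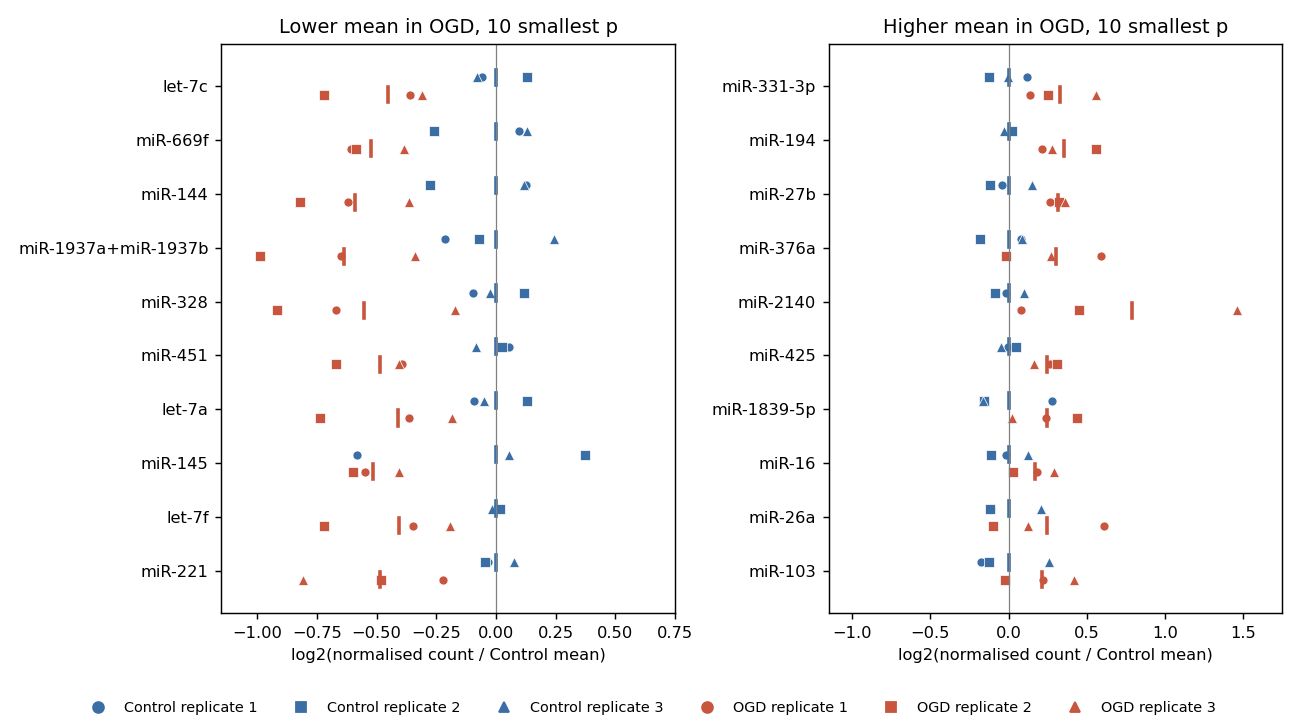
Points give log2 of the normalised count over the Control mean in each lane for the 10 probes with the smallest p among those with lower (left) and higher (right) means in OGD, and bars mark log2 of the group mean. On the left 9 of 10 probes have no overlap between the groups, miR-145 being the exception, beside 9.22% of all tested probes lower without overlap. On the right 4 of 10 have none, beside 4.61% higher without overlap. The probes were picked by p from these same lanes, so these counts have no test.

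The 10 probes named for higher means in OGD had log2 fold changes of 0.17 to 0.79. In the deposited signal with a pseudocount of 1, where the median of all tested probes was -0.33, 6 of them turned negative. With background subtracted the values of all 10 were larger, from 0.30 for miR-16 to 0.95 for miR-2140, beside a median of 0.09 over all tested probes. No probe was called in either setting. miR-27b, a regulator of vessel sprouting and fat metabolism, had 168, 159 and 192 normalised counts in Control and 207, 216 and 222 in OGD (log2 fold change 0.31, SE 0.18, adjusted p = 0.764 by edgeR). miR-194, which is induced by p53 in human cells, had 59.9, 60.6 and 58.4 against 69.1, 87.6 and 72.1 (0.34, SE 0.18). miR-331-3p had 152, 129 and 140 against 155, 167 and 207 (0.33, SE 0.17), and miR-425 had 195, 203 and 190 against 235, 243 and 220 (0.25, SE 0.16). In these 4, picked by p, all OGD lanes lay above all Control lanes, narrowly so for miR-331-3p, as in 4.61% of all tested probes. With lanes scaled by the mRNA probes, where the median of all tested probes was -0.19, the 4 stood at 0.09, 0.11, 0.10 and 0.05. Their sequences are shown because they are the probes above the limit in all 6 lanes with the smallest p in this direction and no overlap; miR-27a, of the same seed as miR-27b, is set beside it.
miR-27b: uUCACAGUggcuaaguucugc
miR-27a: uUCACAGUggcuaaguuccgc
miR-194: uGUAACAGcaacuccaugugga
miR-331-3p: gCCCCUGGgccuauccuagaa
miR-425: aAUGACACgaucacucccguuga
RefSeq places miR-27b at chr13:63300760-63300780 (plus strand, within Aopep), miR-331-3p at chr10:93963783-93963803 (minus strand, within Vezt) and miR-425 at chr9:108568789-108568811 (plus strand, within Dalrd3). miR-194 has a copy within Iars2 at chr1:185313325-185313346 and another at chr19:6264658-6264679, both on the plus strand. miR-27a, far more abundant, overlapped between the groups with 8419, 8527 and 6606 counts in Control and 7722, 10273 and 6833 in OGD (0.08, SE 0.17).

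In the other 6 probes named for higher means the groups overlapped. miR-376a had a log2 fold change of 0.31 (SE 0.18), miR-1839-5p of 0.24 (SE 0.17), miR-26a of 0.25 (SE 0.19), miR-103 of 0.22 (SE 0.17) and miR-16 of 0.17 (SE 0.12). In the deposited signal, which is scaled by the mRNA probes, the direction of all 5 turned with a pseudocount of 1, as did that of miR-425. miR-2140 had 87.2, 83.0 and 94.3 counts in Control and 93.1, 120 and 243 in OGD, so that its log2 fold change of 0.79 (SE 0.48) was 0.26 without OGD replicate 3.

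Taken anew in each lane, the 10 most abundant probes held 48.3 ± 0.539% of the mouse miRNA count in Control and 49.4 ± 0.363% in OGD (SD, n = 3; exact permutation p = 0.10, adjusted 0.18). The values below are those of the 10 highest by Control mean. miR-181a, which acts on apoptosis and chaperone genes in ischaemic brain, had 29997, 28361 and 23864 counts in Control and 32421, 30480 and 26037 in OGD (log2 fold change 0.11, SE 0.12). miR-125b-5p had 26041, 25630 and 29530 against 26902, 30839 and 29844 (0.11, SE 0.10). The probe miR-720, withdrawn as a likely transfer RNA fragment, had 20595, 22159 and 22320 against 16912, 22367 and 17876 (-0.19, SE 0.18). All 3 overlapped. Of the 10, let-7c was the one with an interval that left out 0, and its rank by mean count was 8 in Control and 12 in OGD.

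Cell type markers of the nerve itself showed little difference. miR-338-3p and miR-219 drive oligodendrocyte precursors towards myelinating cells, and both are among the 10 most abundant probes.
miR-338-3p: uCCAGCAUcagugauuuuguug
miR-219: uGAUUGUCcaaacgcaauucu
miR-338-3p, encoded within Aatk at chr11:120014781-120014802 on the minus strand, had 19248, 19621 and 19560 counts in Control and 21806, 19872 and 21031 in OGD. All OGD lanes lay above Control, yet by a small margin (log2 fold change 0.10, SE 0.12, 95% interval -0.14 to 0.35). The value was -0.07 when scaled by the mRNA probes, where the median of all tested probes was -0.19, and 0.24 with background subtracted, where that median was 0.09. miR-219 had 10144, 12270 and 15144 against 9795, 9902 and 13526 (-0.18, SE 0.21). With miR-338-5p and miR-138, the oligodendrocyte list had 3 higher and 1 lower mean and a median of 0.08. Scaled by the mRNA probes this median was -0.10, beside -0.19 over all tested probes. The astrocyte-associated miR-29a, miR-29b and miR-29c, which repress collagens and other matrix genes, all had lower means, with log2 fold changes of -0.21 (SE 0.19), -0.15 (SE 0.24) and -0.11 (SE 0.20). They share their seed and overlapped in all 3; the highest lane of each group was replicate 3, and without Control replicate 3 their median turned to 0.02. Within the runs of title numbers each was lower in OGD in all 3, as were 18.4% of all tested probes; the log2 differences of miR-29a were -0.28, -0.26 and -0.13.

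Of the neuronal list, miR-124 had 7662, 8052 and 7944 counts in Control and 7314, 8051 and 8091 in OGD (log2 fold change -0.01, SE 0.11, 95% interval -0.24 to 0.22). miR-218, enriched in motor neurons and encoded within Slit2 and Slit3, had 685, 561 and 559 against 530, 430 and 440 (-0.36, SE 0.21), with no overlap. The list had 3 higher and 3 lower means of 6 and a median of 0.00. The leukocyte miR-223, miR-142-3p, miR-142-5p and miR-150 ran from -0.10 to 0.17 with a median of 0.03, and miR-155 was not tested. Markers of other tissues were near the limit or did not separate the groups: 3 of 4 skeletal muscle miRNAs were tested (median 0.02), 3 of 7 epithelial ones (median -0.07) and 1 of 5 retinal ones. That one, miR-204, which is also made in pigment and choroid plexus epithelium, had 5389, 5696 and 5962 counts in Control and 4775, 5904 and 5530 in OGD (-0.07, SE 0.12).

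The hypoxia marker miR-210, which lowers mitochondrial respiration through the iron-sulphur assembly proteins ISCU, had slightly higher values in OGD that overlapped with Control. Its sequence is shown as that of the miRNA most often measured after loss of oxygen.
miR-210: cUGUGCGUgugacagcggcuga
It had 339, 346 and 384 normalised counts in Control and 424, 369 and 388 in OGD, and lay above the limit in all 6 lanes. The log2 fold change was 0.14 (SE 0.16, 95% interval -0.20 to 0.49). In this fit, with the background left in, the interval left out an increase of 1.5-fold. Scaled by the mRNA probes the log2 fold change was -0.03, beside a median of -0.19 over all tested probes. It was 0.24 scaled by the ligation controls and 0.26 with background subtracted, beside medians of 0.09 and 0.09. No interval is given for these settings, so an increase of 1.5-fold is not left out in them. RefSeq places miR-210 at chr7:141221407-141221428 on the minus strand.

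Other miRNAs tied to ischaemia and injury also lay close to Control. Of 15 listed, 11 were tested, 8 with higher and 3 with lower means and a median of 0.09. Scaled by the mRNA probes this median was -0.11, beside -0.19 over all tested probes. miR-21, a survival miRNA induced after injury, had 1448, 1294 and 2008 counts in Control and 1642, 1421 and 2054 in OGD (log2 fold change 0.11, SE 0.21). miR-132, induced by neuronal activity, had 3047, 2638 and 2064 against 2040, 2994 and 2194 (-0.10, SE 0.22). The p53 target miR-34a had 49.5, 48.7 and 59.4 against 35, 43.8 and 62.6 (-0.17, SE 0.24). None of these separated the groups. The inflammation list, which shares miR-21 and miR-132 with it, had 2 higher and 2 lower of 4 tested and a median of 0.02. miR-146a, a brake on Toll-like receptor signalling, had 559, 520 and 593 against 552, 451 and 589 (-0.07, SE 0.15). Its relative miR-146b had 28.6, 27.7 and 33.8 against 34.1, 57.9 and 44.5 (0.55, SE 0.26), with no overlap but below the limit in all 6 lanes. The p53 list had a median of 0.34 over 3 tested probes, miR-194, miR-192 and miR-34a, of which miR-192 exceeded the limit in 1 Control and 2 OGD lanes; in the deposited signal with a pseudocount of 1 this median was -0.51.

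Several families had means on one side throughout, by small amounts. All 5 tested probes of the miR-15/16 family, which restrain cyclins and BCL2, had higher means (median 0.12, range 0.01 to 0.50). The same held for all 7 of the miR-17-92 cluster and its paralogs (median 0.08) and all 5 of the miR-23/27/24 clusters (median 0.10). Among them miR-27b alone had groups that did not overlap, beside 13.8% of all tested probes. When scaled by the mRNA probes the 3 medians were -0.08, -0.09 and -0.11, each above the median of -0.19 over all tested probes. miR-26 and miR-103/107, with 2 probes each, had medians of 0.15 and 0.15, which also turned under that scaling, to -0.02 and -0.02. The miR-30, miR-181 and miR-99/100 with miR-125 families stood at 0.04, 0.04 and 0.01. Of the 8 seeds shared by 3 or more matched probes, 6 had medians between 0.01 and 0.12 and the miR-29 seed had the lowest, -0.15. The let-7 seed, carried by miR-1961 as well, had 3 of 10 probes without overlap, beside 13.8% of all tested probes; the other seeds hold 3 to 5 probes each and had at most 1.

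**Figure D5:**
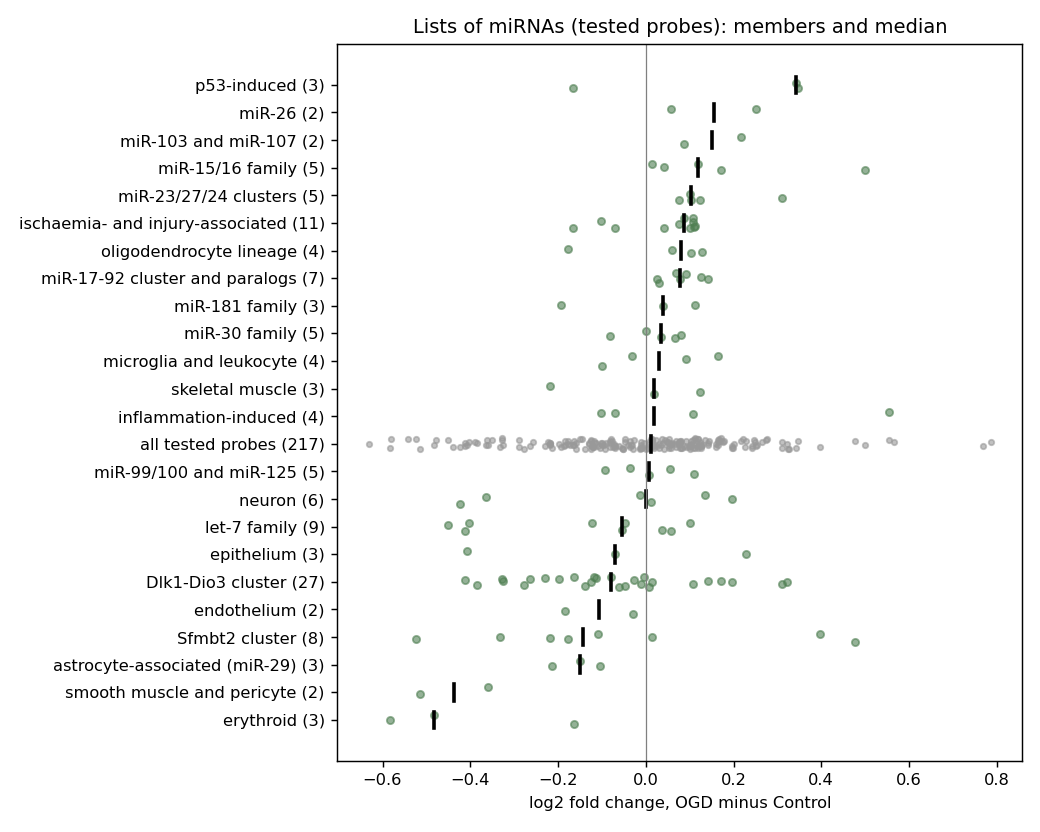
Each point is the log2 fold change, OGD minus Control, of 1 tested probe in the list named at left (number of tested probes in brackets), and black bars mark list medians; grey points are all 217 tested probes, with a median of 0.01. Lists with a single tested probe are not drawn. Of those drawn, the erythroid list (-0.48, 3 probes) and the smooth muscle and pericyte list (-0.44, 2 probes) lie lowest.

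The Dlk1-Dio3 cluster, an imprinted block of miRNAs on chromosome 12 that is active in brain, had 27 of 50 listed probes tested, 8 with higher and 19 with lower means and a median of -0.08. miR-495 had 731, 514 and 564 normalised counts in Control and 494, 416 and 448 in OGD (log2 fold change -0.41, SE 0.23). miR-410 had 486, 402 and 405 against 359, 285 and 385 (-0.33, SE 0.18), and miR-369-3p had 1096, 837 and 927 against 825, 718 and 837 (-0.26, SE 0.15). In these 3 of the 27, beside 9.22% of all tested probes, the OGD lanes lay below Control, for miR-369-3p by a margin under 1 count. Control replicate 1 was the highest Control lane in all 3, and the summed count of the cluster was 13508, 10508 and 10137 in Control and 10805, 10830 and 9635 in OGD. Without Control replicate 1 the median of the cluster turned to 0.07. Of the Sfmbt2 cluster 8 of 28 probes on the panel were tested, 3 higher and 5 lower, with a median of -0.14; 6 of the 8 were below the limit in at least 1 of the 6 lanes.

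Both strands of a precursor were tested for 9 precursors, and in 8 of them the strands had log2 fold changes of opposite sign, miR-338 being the exception. In these 8 the less abundant strand had the higher value, except for miR-434. Several of the less abundant strands were dim, such as miR-369-5p and miR-423-3p with Control means of 38.2 and 52.1. Several values were smaller than their SE, as for miR-125a (-0.04, SE 0.13, and 0.02, SE 0.15). The part of the background in these signs was not tested. For miR-369 the strands stood at -0.26 (SE 0.15) for miR-369-3p and 0.14 (SE 0.24) for miR-369-5p, which was above the limit in 1 of 6 lanes. For miR-423 the 5p strand stood at -0.29 (SE 0.15), with 92.5, 100.1 and 98.4 counts in Control and 77.4, 76.7 and 83.8 in OGD, and the 3p strand at 0.20 (SE 0.21). The differences between strands were not tested.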

How the data were processed

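Small RNA of isolated optic nerves was counted on an nCounter miRNA panel, per the labels' protocols. The deposited raw table holds barcode counts per probe and lane, whole numbers with no normalisation. A second deposited table holds a processed signal whose making is not stated; above 20 it equalled the raw count less the median negative control, scaled by the average of the 4 mRNA probes (ratio 0.997 to 1.004). It served as an alternative, on log2(value + 1) and log2(value + 20) scales with limma. 1 row with no probe name was left out.

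edgeR 4.0.16 (R 4.3.3; TMM factors, robust quasi-likelihood) fitted all 12 lanes with 1 mean per group, and p-values were adjusted over 217 probes (Benjamini-Hochberg, 0.05). DESeq2 1.42.0 and limma-voom (limma 3.58.1) were alternatives. SE and 95% intervals come from the F statistic. The common biological coefficient of variation was 16.6%. The fit was also run on simulated counts, drawn with the same spread for every probe and no difference in background between the groups. These settings differ from the data, and no outcome is given here.

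The members and the 26 miRNA lists were chosen with earlier results of these data known, so no list has a test. Named probes were, in either direction, the 10 of smallest unadjusted p among those above the limit in all 3 lanes of the higher group, the 10 most abundant in Control, list members, shared seeds, and strand pairs.

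RefSeq mature sequences (GRCm38.p6) matched 158 probes, 43 by the same name and 115 through an older name whose strand was taken from general knowledge; 59 did not match. 5 tested probes name more than 1 miRNA.

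Numbers in the sample titles were grouped here by all digits but the last into 3 runs, each holding 1 Control and 1 OGD sample. No label says that a run pairs samples. Deviations of the lanes paired in this way correlated at 0.325, 0.251 and 0.507 across probes, and those of the other Control and OGD lanes at -0.392 to 0.137. Deviations from a group mean cancel out within the group, so these values depend on each other. With this replicate block 0 probes passed and 13 had an unadjusted p under 0.05, 11 of the 12 of the fit without it among them.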

Additional observations from a re-analysis of the deposited data

Results flagged for a closer look

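1 of the probes that were not tested stood out. miR-297c, of the Sfmbt2 repeat cluster, had a raw count of 68 in OGD replicate 1, above the limit of 53.7 in that lane. Its counts were 14, 13 and 16 in Control and 24 and 20 in OGD replicates 2 and 3, all below the limits of their lanes, and it exceeded the limit in 2 of the 12 lanes of the series. A count in 1 lane of 3 is a value of that lane and not of the group.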

How the results depend on the processing

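No probe was called under any of the 22 alternatives. The number with an unadjusted p under 0.05 was 12 in the main setting. It was 0 with lanes scaled by the mRNA probes, 2 by the ligation controls (0 lower and 2 higher) and 0 by the positive controls. With background subtracted it was 14, 9 lower and 5 higher. It was 27 with no background limit, 7 with the limit required in all 12 lanes, and 5 in the deposited signal with a pseudocount of 20. Leaving out 1 replicate gave 7 to 12, with 7 without Control replicate 2 and 7 without OGD replicate 2. The number of probes whose groups did not overlap, 30, was 2 under mRNA scaling, 11 under ligation scaling, 7 under positive control scaling, 66 with no limit, 19 with the limit in all 12 lanes, and 5 in the deposited signal with either pseudocount. Leaving out 1 replicate gave 36 to 57, since fewer lanes overlap more rarely. The median log2 fold change of all tested probes moved from 0.01 to -0.19 under mRNA scaling and to -0.33 and -0.25 in the deposited signal with pseudocounts of 1 and 20. In the deposited signal (pseudocount 1, then 20) log2 fold changes reversed for miR-425 (-0.040, -0.026), miR-1839-5p (-0.030, -0.026), miR-16 (-0.103, -0.102), miR-26a (-0.112, -0.046) and miR-103 (-0.062, -0.055). miR-376a reversed with a pseudocount of 1 (-0.010) and miR-16 under mRNA scaling (-0.014). Of the 20 probes named by p, 424 values kept their sign and side of the threshold and these 12 reversed, and the cause was not tested. The replicate block by title numbers, with 13 probes at an unadjusted p under 0.05, changed no call. Detection limits the statement on dim probes: 64 of the 217 were not above the limit in all 6 lanes.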

Other observations

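Over the 158 probes with a matched sequence, the log2 fold change of OGD over Control correlated with the GC content of the mature miRNA at a Pearson r of 0.25 and a Spearman rho of 0.25, and with its length at -0.02 and -0.05. These are descriptions across probes that share the same 6 lanes. The 69 miRNAs that end in U had 29 higher and 40 lower means and a median of -0.05, with 11 of them lower and 1 higher without overlap, beside 9.22% lower and 4.61% higher over all tested probes. Those that end in A, C or G had medians of 0.07 (33 probes), 0.07 (19) and 0.04 (37), with 0, 1 and 1 lower and 4, 1 and 2 higher without overlap. All 9 let-7 family members and miR-451 end in U. 5 further untested probes exceeded the limit in at least 1 of the 6 lanes, miR-200c, miR-380-3p, miR-421, miR-467e and miR-582-5p, with counts between 15 and 45.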
